A study of Mus musculus with 4 samples.

Results

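Aggrecan, the core protein encoded by *Acan*, and the enzymes and transporter that build its chondroitin sulfate chains were followed through injury-induced heterotopic ossification, the formation of cartilage and bone in soft tissue. The group held 10 genes, taken by symbol from the 32285 genes of the deposited count tables: *Acan*, *Papss2*, *Slc26a2*, *Chst3*, *Chst11*, *Chsy1*, *Chpf*, *Csgalnact1*, *Xylt1* and *Ust*. All 10 symbols were present once. The libraries came from tibial muscle of *Nse-Bmp4* mice on a C57BL/6 background aged 6 to 8 weeks, in which the promoter of neuron specific enolase, a gene of neurons, drives the bone morphogenetic protein *Bmp4*. There were 4 single-cell libraries on the 10x platform: Uninjured muscle, and muscle taken 1, 3 or 7 days after cardiotoxin, a venom protein that kills muscle fibres, was injected (dpi, days post injury). Each library mixed 3 muscles, and every animal carried the transgene, the uninjured ones included. With 1 library per time point there were no biological replicates, no test between time points was possible and no p-value is given; a difference between time points cannot be told apart from a difference between libraries.

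Chondroitin sulfate is a long sugar chain of alternating glucuronic acid and N-acetylgalactosamine that is attached to serines of a core protein through a short linker beginning with xylose. Aggrecan carries many such chains in its central region and, held on hyaluronan by link protein, gives cartilage its fixed negative charge and its resistance to compression. Sulfate must be taken up by the cell, activated to the donor PAPS and placed on the chains by sulfotransferases, and inherited loss of several of these steps in mice or people shortens the skeleton.

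Filters on UMIs (unique molecular identifiers, each a captured transcript), genes, mitochondrial share and doublet score kept 10307, 9641, 12604 and 20301 cells in the order Uninjured, 1, 3 and 7 dpi. The median UMI count of the kept cells fell along this order from 8638 to 3049, and that of mesenchymal lineage cells from 9149 to 3221, so shares of cells with a UMI are given also after thinning each cell to 1000 UMIs. Pairs of libraries shared 30 to 95 cell barcodes. Cells were assigned to classes by marker genes, none of which is among the 10. A class was the one whose list had the uniquely highest share of markers detected, with at least 3 markers, and the mesenchymal lineage (*Pdgfra*, *Prrx1*, *Col1a1* and others, without *Ptprc*) numbered 8360, 3632, 6310 and 15179 cells. Chondrocyte-like cells were lineage cells with at least 5 UMIs of *Col2a1*, the main cartilage collagen, and at least 3 of the other 7 cartilage markers. There were 3896 of them, all at 7 dpi, and each of the 8 markers was detected in 67.6% or more of them. At the gate, 652 lineage cells had 3 or 4 *Col2a1* UMIs, of which 302 met the requirement on the other markers, and 349 had 5 or 6, of which 258 met it. The 7 dpi cells gated by mast cell markers had *Col1a1* at 13742 CPM and the pan-leukocyte gene *Ptprc* in 5.81% of cells, which goes against that name, and they were left unnamed. Levels are counts per 1000000 (CPM), the UMIs of a gene over all UMIs of the cells of a class. Every interval is at 95% and covers counting error only. A member was called higher or lower where the CPM ratio was 2 or more or 1/2 or less with at least 20 UMIs in both groups together. The 3′ tags of this platform carry no length correction, so genes are not ranked against one another.

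On GRCm38, in the GENCODE M21 annotation, *Acan* lies on the plus strand at chr7:79053483-79115099 and its longest transcript has 17 exons. *Chsy1* and *Xylt1* are on the same chromosome, *Chst3*, *Chst11* and *Ust* on chromosome 10, *Chpf* on chromosome 1, *Csgalnact1* on chromosome 8 and *Papss2* on chromosome 19. *Chst11* spans chr10:82985498-83195900 on the plus strand with 3 exons, *Papss2* spans chr19:32595790-32667187 on the plus strand with 13 exons in its longest transcript, and *Chst3* spans chr10:60181532-60219260 on the minus strand with 4. *Chst11*, *Chsy1* and *Csgalnact1* overlap annotated antisense genes, and whether the counting used strand is not given in the sources used here.

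Promoter windows of 250 bases before to 50 after the start, from RefSeq on GRCm38.p6, were used for 7 of the 10 members, with 8 windows (*Papss2* has 2). The RefSeq starts of *Acan* and *Papss2* differ from the GENCODE starts given above, which lie outside the windows of these genes. *Slc26a2* was left out of this search, and no window was used for *Csgalnact1* and *Xylt1*. The windows printed here are those of *Acan*, *Chst11* and *Papss2*, 3 of the members that were several-fold higher in chondrocyte-like cells, and of *Chst3*, whose level was highest in B cells. Each is written 5′ to 3′ on the strand of the gene, with capitals marking the GC box GGGCGG, the SOX core ACAAAG, the RUNX core ACCACA or the TATA box TATAAA on either strand.
Acan, chr7:79052976-79053275, plus strand: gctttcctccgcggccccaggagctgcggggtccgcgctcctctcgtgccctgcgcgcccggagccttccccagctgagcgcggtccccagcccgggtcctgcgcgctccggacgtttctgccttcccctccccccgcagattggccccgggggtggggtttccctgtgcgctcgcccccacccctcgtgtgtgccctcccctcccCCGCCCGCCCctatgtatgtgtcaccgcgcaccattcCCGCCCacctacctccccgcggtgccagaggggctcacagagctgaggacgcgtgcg
Chst11, chr10:82985247-82985546, plus strand: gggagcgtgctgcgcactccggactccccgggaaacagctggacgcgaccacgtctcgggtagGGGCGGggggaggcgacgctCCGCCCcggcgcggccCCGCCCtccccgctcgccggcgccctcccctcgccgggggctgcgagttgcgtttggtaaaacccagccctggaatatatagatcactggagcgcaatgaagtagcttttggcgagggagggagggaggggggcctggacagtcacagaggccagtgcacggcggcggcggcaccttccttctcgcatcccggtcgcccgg
Papss2, chr19:32595465-32595764, plus strand: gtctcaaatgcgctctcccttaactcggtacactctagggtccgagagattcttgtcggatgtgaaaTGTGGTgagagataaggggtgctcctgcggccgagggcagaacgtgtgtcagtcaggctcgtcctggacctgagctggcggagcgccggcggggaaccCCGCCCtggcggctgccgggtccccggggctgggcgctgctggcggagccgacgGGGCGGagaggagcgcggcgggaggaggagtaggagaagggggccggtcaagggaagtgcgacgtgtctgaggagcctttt
Chst3, chr10:60219211-60219510, minus strand: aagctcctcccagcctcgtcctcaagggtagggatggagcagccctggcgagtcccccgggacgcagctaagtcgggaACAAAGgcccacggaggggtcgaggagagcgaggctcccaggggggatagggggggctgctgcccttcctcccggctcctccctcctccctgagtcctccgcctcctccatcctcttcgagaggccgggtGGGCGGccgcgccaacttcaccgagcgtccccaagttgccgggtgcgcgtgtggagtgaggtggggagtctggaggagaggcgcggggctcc
These 4 windows held 31, 34, 27 and 22 CG dinucleotides, against a median of 7 over all 32851 windows of the table. The GC box was present 3 times in *Acan*, where 2 copies overlap, 3 times in *Chst11*, 2 times in *Papss2* and 1 time in *Chst3*, and 35.7% of all windows hold it. The *Papss2* window had 1 RUNX core (16.8% of all windows hold one), the *Chst3* window had 1 SOX core (18.7%), and none of the 4 had a TATA box (13.6%). The second *Papss2* window, at chr19:32619755-32620054, had 1 CG dinucleotide and none of the 4 motifs. A match is a run of letters and not a bound site.

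*Acan* was close to absent from the mesenchymal lineage before 7 dpi and abundant there at 7 dpi. Its level was 0.191 CPM in Uninjured (0.107 to 0.316), 0.428 CPM at 1 dpi (0.234 to 0.719), 1.33 CPM at 3 dpi (1.04 to 1.67) and 858 CPM at 7 dpi (852 to 865). Behind these values were 15, 14, 72 and 67801 UMIs. In Uninjured the 15 UMIs lay in 7 of 8360 cells, and at 3 dpi the 72 UMIs lay in 31 of 6310 cells, or 0.491% (0.334 to 0.697). At 7 dpi 55.4% of lineage cells had an *Acan* UMI, and 36.1% did after thinning, against 0.133% at 3 dpi and 0.0120% in Uninjured. The 7 dpi level was 647 times that of 3 dpi (514 to 827), and the 3 dpi level was 6.93 times that of Uninjured (3.93 to 13.0). The 1 dpi level rested on 14 UMIs, and its ratio of 2.24 to Uninjured (1.00 to 4.97) turned below 1 when no cell was filtered out. Outside the lineage, the only named classes of 50 or more cells with an *Acan* UMI before 7 dpi were tenocyte-like cells of Uninjured (6 UMIs in 3 of 60 cells, 10.1 CPM) and pericytes and smooth muscle cells of Uninjured (3 UMIs in 3 of 85 cells). All immune classes of the first 3 libraries had 0 *Acan* UMIs.

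**Figure D1:**
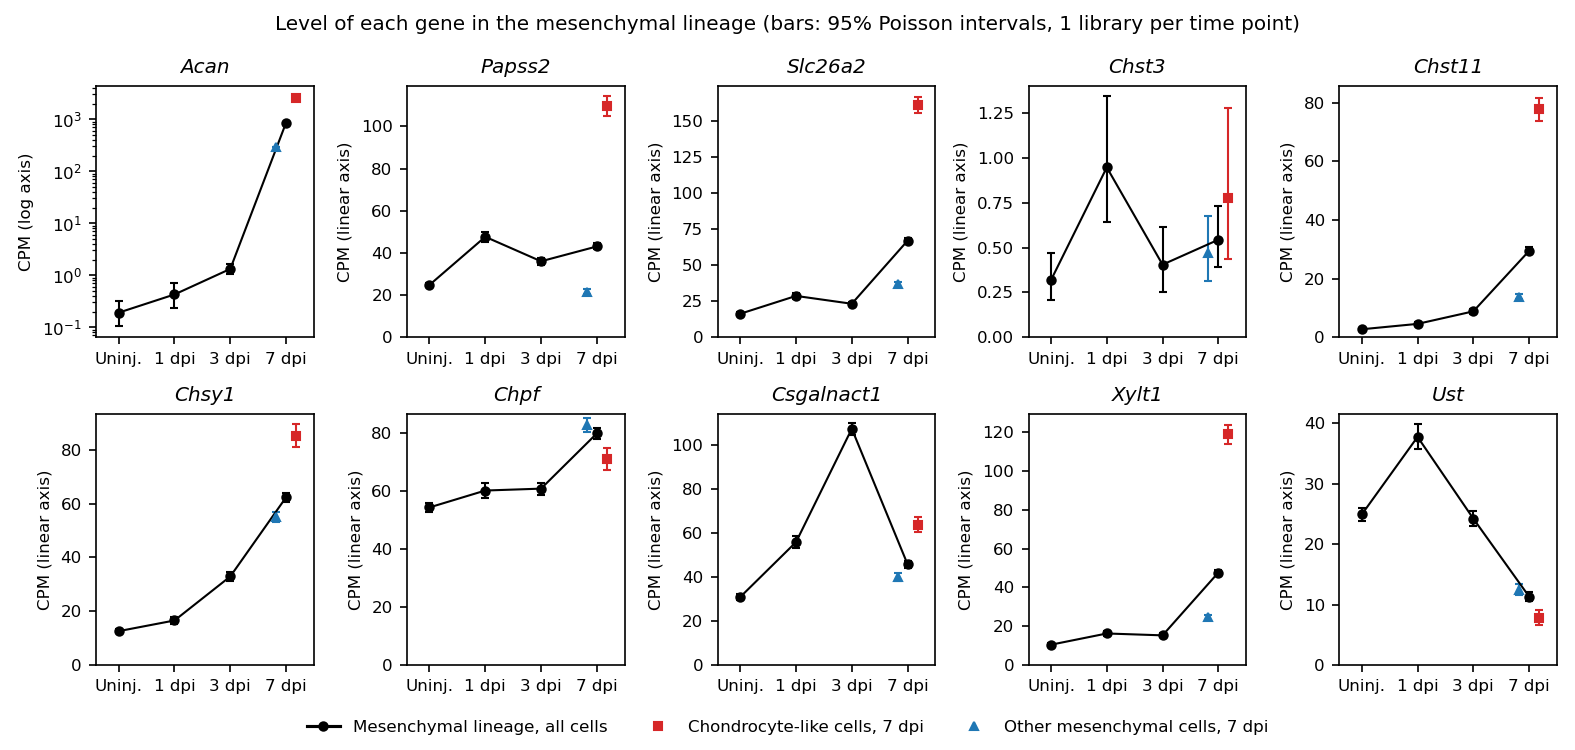
Level of each of the 10 genes in CPM by library (x axis: Uninjured, 1, 3 and 7 dpi) in all mesenchymal lineage cells (black), with chondrocyte-like cells (red squares) and other mesenchymal cells (blue triangles) of 7 dpi apart; bars are 95% Poisson intervals, the *Acan* axis is logarithmic and the others start at 0. *Acan* goes from 0.191 to 858 CPM, *Csgalnact1* peaks at 3 dpi at 107 CPM and *Ust* is lowest at 7 dpi at 11.3 CPM.

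The sulfate supply genes differed less between libraries. *Slc26a2*, the plasma membrane sulfate transporter that is mutated in diastrophic dysplasia, had 16.2 CPM in Uninjured, 28.6 at 1 dpi, 23.1 at 3 dpi and 66.8 at 7 dpi, the last 4.12 times Uninjured (3.88 to 4.39). *Papss2*, the cartilage PAPS synthase that is defective in brachymorphic mice, had 24.8, 47.6, 36.0 and 43.1 CPM. Its highest level was at 1 dpi, at 1.92 times Uninjured (1.80 to 2.05), and the 7 dpi ratio was 1.74 (1.64 to 1.84), so it was called at neither time.

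Of the genes that start and extend the chain, *Xylt1*, the xylosyltransferase that begins the linker, had 10.4, 16.2, 15.3 and 47.6 CPM and was 4.57 times Uninjured at 7 dpi (4.24 to 4.94). *Chsy1*, a chondroitin synthase of the polymerising complex, had 12.6, 16.5, 32.9 and 62.3 CPM, a ratio to Uninjured of 2.62 at 3 dpi (2.42 to 2.83) and of 4.96 at 7 dpi (4.63 to 5.32). Its partner *Chpf*, the chondroitin polymerising factor, stayed between 54.3 and 79.8 CPM and was called at no time. *Csgalnact1*, which adds the first N-acetylgalactosamine and so commits the linker to chondroitin, had another course from the rest of the group: 30.9 CPM in Uninjured, 55.8 at 1 dpi, 107 at 3 dpi and 45.7 at 7 dpi. It was 3.48 times Uninjured at 3 dpi (3.32 to 3.65), and its 7 dpi level was 0.426 times that of 3 dpi (0.409 to 0.444).

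The sulfotransferases differed from one another. *Chst11*, which places sulfate on the N-acetylgalactosamine of chondroitin and is required for the growth plate, had 2.69, 4.53, 8.80 and 29.4 CPM, and its 7 dpi level was 10.9 times Uninjured (9.49 to 12.6). *Ust*, which sulfates the uronic acid of the chain, had 24.9, 37.8, 24.2 and 11.3 CPM, and its 7 dpi level was 0.454 times Uninjured (0.419 to 0.492). *Chst3*, which sulfates another carbon of N-acetylgalactosamine than *Chst11*, was at 0.319, 0.948, 0.405 and 0.544 CPM in the lineage with 25, 31, 22 and 43 UMIs, and 0.263% to 0.854% of lineage cells had a UMI of it.

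Against Uninjured, 2 of the 10 members were called higher at 1 dpi (*Acan* and *Chst3*, both on few UMIs) and 0 lower, beside 9.74% of all genes tested called higher and 5.58% called lower. At 3 dpi 4 were higher (*Acan*, *Chst11*, *Chsy1* and *Csgalnact1*) and 0 lower, beside 15.6% and 9.26%. At 7 dpi 5 were higher (*Acan*, *Slc26a2*, *Chst11*, *Chsy1* and *Xylt1*) and 1 lower (*Ust*), beside 20.3% and 11.8%. The median log2 ratio of the members was 0.78, 0.54 and 1.42 at 1, 3 and 7 dpi, and that of all genes tested was 0.16, 0.12 and 0.08. These 3 comparisons share the Uninjured library. From 1 to 3 dpi 1 member was higher (*Acan*, at 3.10 times) and 1 lower (*Chst3*, on 31 and 22 UMIs), beside 7.73% and 6.10% of all genes. From 3 to 7 dpi 4 members were higher (*Acan*, *Slc26a2*, *Chst11* and *Xylt1*) and 2 lower (*Csgalnact1* and *Ust*), beside 13.1% and 9.00% of all genes.

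Other cell classes held these transcripts to different extents, and the part of free RNA or mixed droplets in the lineage levels was not tested. In NK and T cells *Chsy1* was at 35.9, 80.2, 106 and 55.2 CPM in the order of the libraries, above its lineage level in the first 3. *Slc26a2* was at 24.8, 35.4, 36.6 and 18.2 CPM, also above its lineage level in the first 3. *Chst11* in these cells was at 6.53 CPM in Uninjured, on 10 UMIs, against 2.69 CPM in the lineage. At 1 dpi it was at 17.1 CPM in NK and T cells and 29.5 CPM in neutrophils, against 4.53 CPM in the lineage. *Xylt1* reached 54.2, 66.9, 48.5 and 48.3 CPM in B cells, 41.4 to 99.6 CPM in neutrophils and 33.7 to 76.9 CPM in Schwann cells. In monocytes and macrophages it was at 30.4 CPM in Uninjured and 40.7 CPM at 1 dpi, where they held 27.9% of its UMIs. The lineage had 10.4 and 16.2 CPM in these libraries. In B cells it was 5.20 times its lineage level in Uninjured (3.59 to 7.29), and at 7 dpi the ratio was 1.01 (0.589 to 1.62). By contrast *Csgalnact1* was between 0 and 1.65 CPM in monocytes and macrophages and between 0.653 and 2.27 CPM in NK and T cells, with 30.9 CPM or more in the lineage of every library. *Chpf* was between 0.805 and 2.88 CPM in monocytes and macrophages, but at 24.3 CPM in NK and T cells of 1 dpi (105 UMIs). In tenocyte-like cells of Uninjured it was at 97.4 CPM (58 UMIs), against 54.3 CPM in the lineage. *Csgalnact1* was not confined to the lineage either. It was at 48.6 CPM in muscle cells of 1 dpi (25 UMIs) and 22.7 CPM in Schwann cells of Uninjured (21 UMIs). *Papss2* was at 63.5 and 58.3 CPM in endothelial cells of 3 and 7 dpi, against 36.0 and 43.1 CPM in the lineage. These endothelial levels rested on 21 and 16 UMIs, the second too few to show a direction.

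*Chst3* stood apart from the rest of the group by its class. B cells had 139 CPM in Uninjured (90 UMIs), 249 at 1 dpi (1175), 372 at 3 dpi (399) and 131 at 7 dpi (46), which was 437, 262, 917 and 240 times the lineage level of the same library. The lowest of the 4 interval bounds was 155. In the 1 dpi library 92.7% of all *Chst3* UMIs came from B cells, and at 7 dpi, with 193 B cells among 20301 cells, 30.7% did. The lineage level at 1 dpi was 0.948 CPM (0.644 to 1.35). In the same library monocytes and macrophages had 0.655 CPM (0.299 to 1.24) and neutrophils 0.732 CPM (0.151 to 2.14), and these intervals overlap. Schwann cells had 18.4, 22.9, 35.9 and 25.7 CPM, endothelial cells 15.4, 36.3 and 3.64 CPM from 1 to 7 dpi, and no other named class exceeded 12.8 CPM. Among B cells split after their values were seen, those with a UMI of *Ighd*, the heavy chain of the naive cell's IgD, had 192 CPM at 1 dpi (177 to 207). Those with a UMI of *Vpreb3*, a pre-B cell receptor chaperone, and none of *Ighd* had 429 CPM (393 to 468), with 35.0% and 71.6% of cells positive at median depths of 2852 and 3074 UMIs. At 3 dpi these groups had 303 (242 to 375) and 397 CPM (350 to 447). In Uninjured they had 160 (123 to 206) and 98.6 CPM (58.4 to 156), the second on 18 UMIs in 42 cells. At 7 dpi the second group had 11 UMIs in 34 cells. The intervals of the groups overlapped in Uninjured, at 3 dpi and at 7 dpi, and those of the smallest groups are wide.

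**Figure D2:**
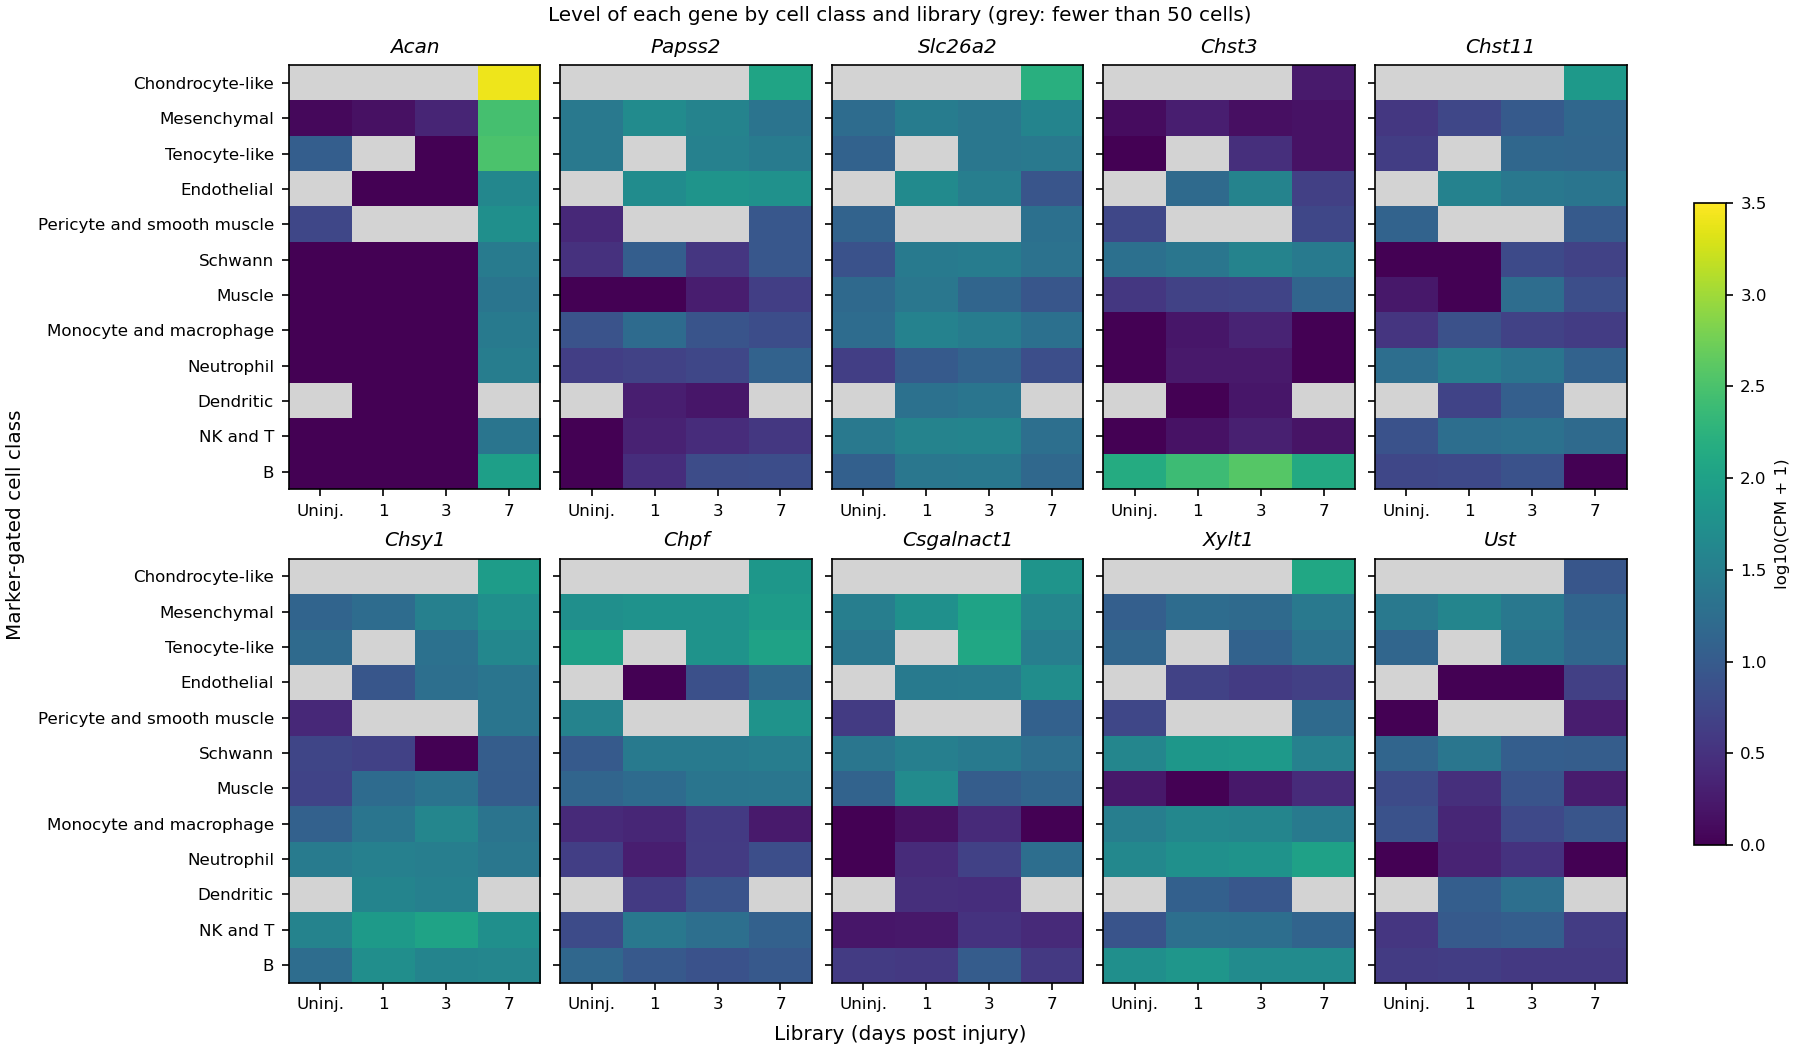
Level of each of the 10 genes as log10(CPM + 1) in colour, by marker-gated cell class (rows) and library (columns: Uninjured, 1, 3 and 7 dpi), with classes under 50 cells in grey. *Acan* is at 10.1 CPM or less in all classes before 7 dpi, and *Chst3* is highest in the B cell row of every library, at 131 to 372 CPM.

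At 7 dpi the lineage was compared within 1 library, so that depth and preparation were shared. The median cell had 3499.5 UMIs among chondrocyte-like and 3095 among other mesenchymal cells. Of the 10 members, 5 were called higher in chondrocyte-like cells than in the 11283 other mesenchymal cells and 0 lower, where 4.64% of all genes tested were called higher and 6.81% lower. The median log2 ratio was 1.43 over the members and -0.15 over all genes tested. *Acan* had 2611 CPM in chondrocyte-like cells and 292 CPM in the others, a ratio of 8.95 (8.80 to 9.11), with a UMI in 93.7% and 42.2% of cells (75.8% and 21.4% after thinning). Per chondrocyte-like cell the quartiles were 2, 5 and 13 *Acan* UMIs, the largest count was 304, and 31.9% of cells had 10 or more. Chondrocyte-like cells held 66.9% of all *Acan* UMIs of the library and other mesenchymal cells 23.1%.

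The 4 remaining called members belonged to sulfate supply, chain start and sulfation. *Chst11* was at 77.6 against 13.8 CPM (ratio 5.61, 5.15 to 6.12). *Papss2* was at 110 against 21.5 CPM (5.10, 4.76 to 5.47), although it had not been called over time in the lineage as a whole. *Xylt1* was at 119 against 24.6 CPM (4.83, 4.52 to 5.16), and *Slc26a2* at 161 against 36.5 CPM (4.40, 4.17 to 4.65). The ratio was 1.60 for *Csgalnact1* (1.49 to 1.71) and 1.55 for *Chsy1* (1.46 to 1.65), with 63.7 against 39.9 CPM and 85.3 against 54.9 CPM. *Chpf* was at 71.1 against 82.7 CPM (0.859, 0.809 to 0.913) and *Ust* at 7.77 against 12.5 CPM (0.624, 0.520 to 0.744). The interval of *Chst3* was 0.823 to 3.21 on 15 and 28 UMIs, too wide to show a direction at this depth.

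The other mesenchymal cells of 7 dpi were set against those of 3 dpi to see which members differed without the gated chondrocyte-like cells. The 7 dpi group still held cells with cartilage markers. Of the lineage cells of 7 dpi, 5928 had a UMI of 3 or more cartilage markers, with 58914 *Acan* UMIs. The 3896 chondrocyte-like cells held 50382 of those UMIs. In lineage cells with no cartilage marker *Acan* was at 148 CPM. In all other mesenchymal cells together, 1 of the 10 members was higher, *Acan*, at 220 times its 3 dpi level (175 to 281). There was 1 lower, *Csgalnact1*, at 0.372 times (0.354 to 0.390), beside 11.7% and 8.11% of all genes. *Ust* was at 0.515 times (0.470 to 0.563), just outside the limit. *Papss2* was at 0.597 times its 3 dpi level (0.556 to 0.641) in these cells, while *Chst11*, *Chsy1*, *Slc26a2* and *Xylt1* had ratios between 1.57 and 1.67. Against Uninjured, these cells had 5 members higher, with *Chst11* at 5.14 times (4.41 to 6.01) and *Chsy1* at 4.37 times (4.07 to 4.70), and 0 lower, beside 19.2% and 11.2%. *Ust* was at 0.5003 times Uninjured (0.459 to 0.545), again just outside the limit.

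*Acan* was also present in 7 dpi lineage cells without detected *Col2a1* or other cartilage markers. In the 6532 cells without a *Col2a1* UMI, of which 357 had 3 or more of the other cartilage markers, it was at 254 CPM (249 to 260) with a UMI in 36.1% of cells, or 18.3% after thinning. In the 3627 cells without a UMI of any of the 8 cartilage markers it was at 148 CPM (141 to 155), with a UMI in 27.2% of cells and 14.0% after thinning. The 1201 immune cells of that library, 16 dendritic cells included, which should lack the gene, had 30.0 CPM on 112 UMIs, from 22.0 in NK and T cells to 93.7 CPM in B cells, whose 33 UMIs lay in 16 cells. The share of NK and T cells with an *Acan* UMI was 5.95%, at a median of 2241 UMIs per cell. *Acan* in all other mesenchymal cells, those with cartilage markers included, was 9.72 times the immune level (8.07 to 11.8). No such ratio was made for the cells without any cartilage marker, at 148 CPM against 93.7 CPM in B cells alone. In tenocyte-like cells *Acan* was 10.6 times the immune level (8.66 to 13.1). In pericytes and smooth muscle cells it was 1.81 times (1.39 to 2.36), while in Schwann cells, muscle cells and endothelial cells the interval of that ratio included 1. For each *Col2a1* UMI there were 0.190 *Acan* UMIs in chondrocyte-like cells (0.188 to 0.192) and 0.243 in the immune classes (0.196 to 0.300), but 1.99 in other mesenchymal cells (1.94 to 2.04) and 1.47 in tenocyte-like cells (1.30 to 1.66). The gate on *Col2a1* UMIs placed cells into the chondrocyte-like or the other mesenchymal group, so the gap between their ratios is in part set by that gate and is given as a description. In the lineage cells without a *Col2a1* UMI, the cartilage genes *Col10a1* and *Hapln1* (link protein) were at 8.40 and 13.0 CPM. The part of free RNA in the *Acan* UMIs of these cells was not tested beyond these values.

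Along the share of *Col2a1*, in 6 ranges of *Col2a1* UMIs per 10000 UMIs of a cell and with *Col2a1* left out of the total, the members fell into different courses. The ranges held 6532, 1708, 2288, 1816, 2192 and 643 cells and are cuts of a score, not cell types. The range above 0 and up to 2 holds deep cells by construction, with a median of 11808 UMIs against 2565 to 4548 in the others. *Acan* had 254, 301, 380, 1018, 2393 and 4980 CPM from the lowest to the highest range, and the last was 19.6 times the first. *Papss2* went from 20.4 to 185 CPM, *Slc26a2* from 33.3 to 250 CPM, *Chst11* from 13.4 to 137 CPM and *Xylt1* from 23.0 to 198 CPM, and each differed by less than 1.5 times among the lowest 3 ranges. *Csgalnact1* went from 40.8 to 93.9 CPM and *Chsy1* from 54.6 to 94.9 CPM. *Chpf* was at 81.6 CPM in the first and 68.6 CPM in the last range. *Ust* went from 12.2 CPM (11.0 to 13.5) to 3.80 CPM (2.25 to 6.00), the last on 18 UMIs. After thinning the last range was at 8.32 CPM, with a UMI in only 0.806% of its cells.

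**Figure D3:**
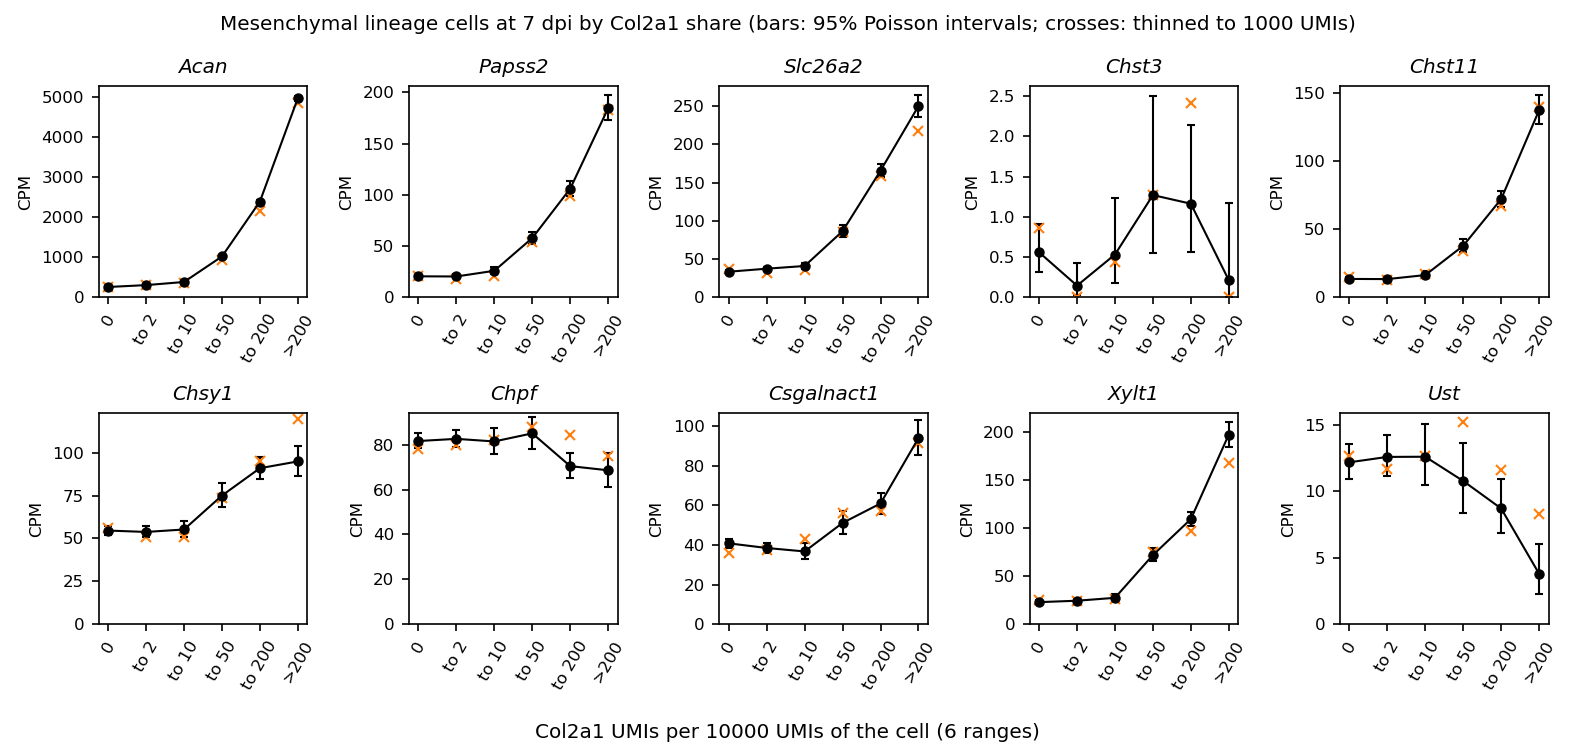
Level in CPM (linear axis from 0) of each of the 10 genes in 7 dpi mesenchymal lineage cells, in 6 ranges of *Col2a1* UMIs per 10000 UMIs of the cell; bars are 95% Poisson intervals and crosses the levels after thinning to 1000 UMIs. *Acan* goes from 254 to 4980 CPM, *Papss2*, *Slc26a2*, *Chst11* and *Xylt1* are highest in the upper 3 ranges, and *Ust* goes from 12.2 to 3.80 CPM.

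Chondrocyte-like cells were then split by *Col10a1*, the collagen of hypertrophic cartilage, into 734 cells with at least 2 UMIs and 2835 cells with none, leaving out 327 cells with 1. Of the 9 members with enough UMIs, 0 were called in either direction, beside 2.86% of all genes called higher and 3.52% called lower. *Acan* was at 3937 against 2232 CPM, a ratio of 1.76 (1.73 to 1.80). *Chsy1* was at 107 against 79.2 CPM (1.35, 1.20 to 1.52) and *Papss2* at 122 against 103 CPM (1.18, 1.06 to 1.32), while *Slc26a2* was at 137 against 164 CPM (0.834, 0.756 to 0.919). The intervals of *Chst11*, *Chpf*, *Csgalnact1*, *Xylt1* and *Ust* included 1, and *Chst3* had 2 and 11 UMIs. *Col2a1* was higher in the positive cells as well, at 19255 against 12164 CPM, and *Acan* per *Col2a1* UMI was 0.204 (0.201 to 0.208) and 0.183 (0.181 to 0.186).

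**Figure D4:**
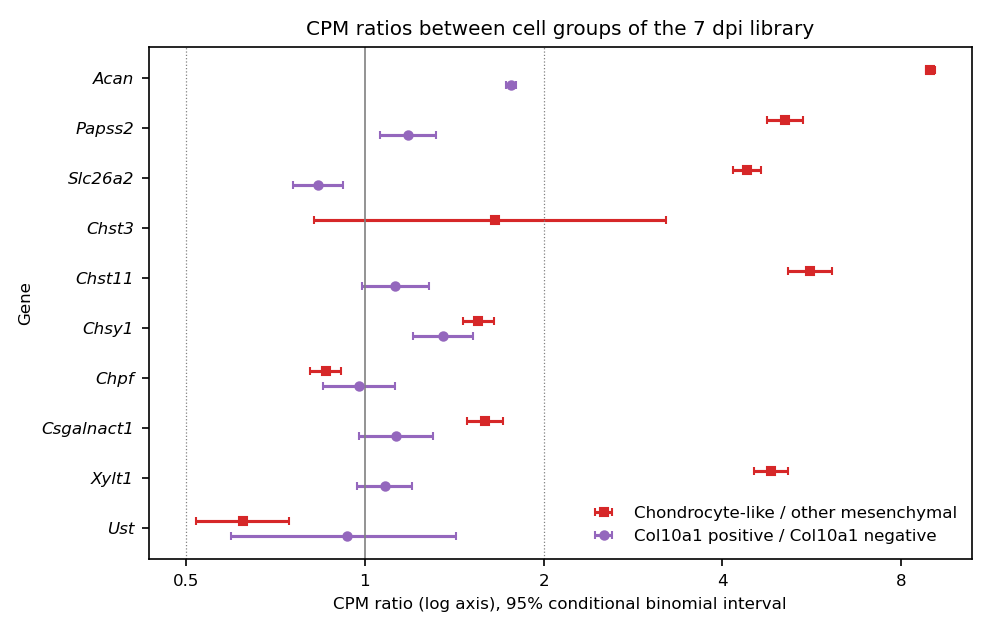
CPM ratios on a logarithmic axis, with 95% conditional binomial intervals, for the 10 genes between chondrocyte-like and other mesenchymal cells (red squares) and for the 9 with at least 20 UMIs between *Col10a1* positive and negative chondrocyte-like cells (purple circles), all within the 7 dpi library; dotted lines mark ratios of 0.5 and 2. *Acan*, *Papss2*, *Slc26a2*, *Chst11* and *Xylt1* lie at 4.40 to 8.95 in the first and all 9 lie between 0.5 and 2 in the second.

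Other genes of the pathway came from 7 lists of 83 genes, of which 82 were in the files and 81 had enough UMIs in the 7 dpi lineage. Between chondrocyte-like and other mesenchymal cells 14 were higher and 4 lower, against the 4.64% and 6.81% of all genes given above. At a ratio of 1.5, 18 were higher and 15 lower, beside 8.68% and 16.8% of all genes. Supply of sulfate and sugar donors had 4 of 12 higher and 0 lower. *Slc35d1*, an importer of the nucleotide sugars used for chondroitin, was at 43.5 against 8.63 CPM (ratio 5.04, 4.51 to 5.64). *Impad1*, the Golgi phosphatase that clears the by-product of sulfation, was at 124 against 60.1 CPM (2.06, 1.95 to 2.17). *Slc26a1*, also higher and looked up after its values were seen, rested on 22 UMIs in each group. Over the 4 libraries the lineage level of *Slc35d1* was 6.98, 11.6, 10.6 and 17.1 CPM. The linker and polymerisation list had 1 of 9 higher, *Fam20b*, the kinase that phosphorylates the linker xylose, at 47.9 against 19.3 CPM (2.48, 2.28 to 2.71). None of the 7 other sulfotransferases and epimerases of chondroitin and dermatan sulfate was called.

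The list of core proteins and aggregate partners had 7 of 13 higher and 1 lower. Matrilin 1 (*Matn1*), a cartilage matrix protein, was at 138 against 1.02 CPM (ratio 135, 105 to 177). *Hapln1*, the link protein that fastens aggrecan to hyaluronan, was at 1447 against 21.3 CPM (67.9, 64.2 to 71.9), and *Epyc*, a small proteoglycan of growth cartilage, at 24.9 against 0.603 CPM (41.3, 29.4 to 59.6). The other 4, looked up after their values were seen, were *Comp*, *Cspg4*, *Hapln4* and *Bcan*, with ratios from 2.04 to 14.5. *Hapln1* and *Matn1* were also the 2 of 13 higher in *Col10a1* positive than negative chondrocyte-like cells, beside 2.86% of all genes. Their ratios were 2.40 (2.34 to 2.46) and 2.64 (2.43 to 2.86). *Cspg5*, a neural proteoglycan, was at 1.55 against 3.15 CPM (0.494, 0.324 to 0.729). Keratan sulfate synthesis had 0 of 8 higher and 1 lower, the galactosyltransferase *B4galt4* at 3.52 against 7.34 CPM. Heparan sulfate synthesis had 1 of 15 higher and 1 lower. *Extl1*, an exostosin-like glycosyltransferase, was at 12.2 against 0.486 CPM (25.2, 17.1 to 38.4), and *Hs3st1*, a heparan sulfotransferase, at 1.76 against 4.61 CPM (0.383, 0.260 to 0.548). The list for aggrecan cleavage and chain breakdown had 17 genes, a tissue inhibitor of the proteases included. Among them the collagenase *Mmp13* was higher, at 61.1 against 24.9 CPM (2.45, 2.27 to 2.64), and the aggrecanase *Adamts5* lower, at 59.4 against 143 CPM (0.417, 0.391 to 0.443). *Adamts5* had been at 655, 883 and 596 CPM in the lineage of the first 3 libraries and was at 122 CPM at 7 dpi. This course does not stand for the list. In the 7 dpi lineage against Uninjured, 6 of its 17 genes were higher and 3 lower, beside 20.3% and 11.8% of all genes. The inhibitor was among the lower ones. *Mmp13* had gone from 0.0383 CPM (3 UMIs) in Uninjured to 3.64, 3.26 and 33.8 CPM.

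**Figure D5:**
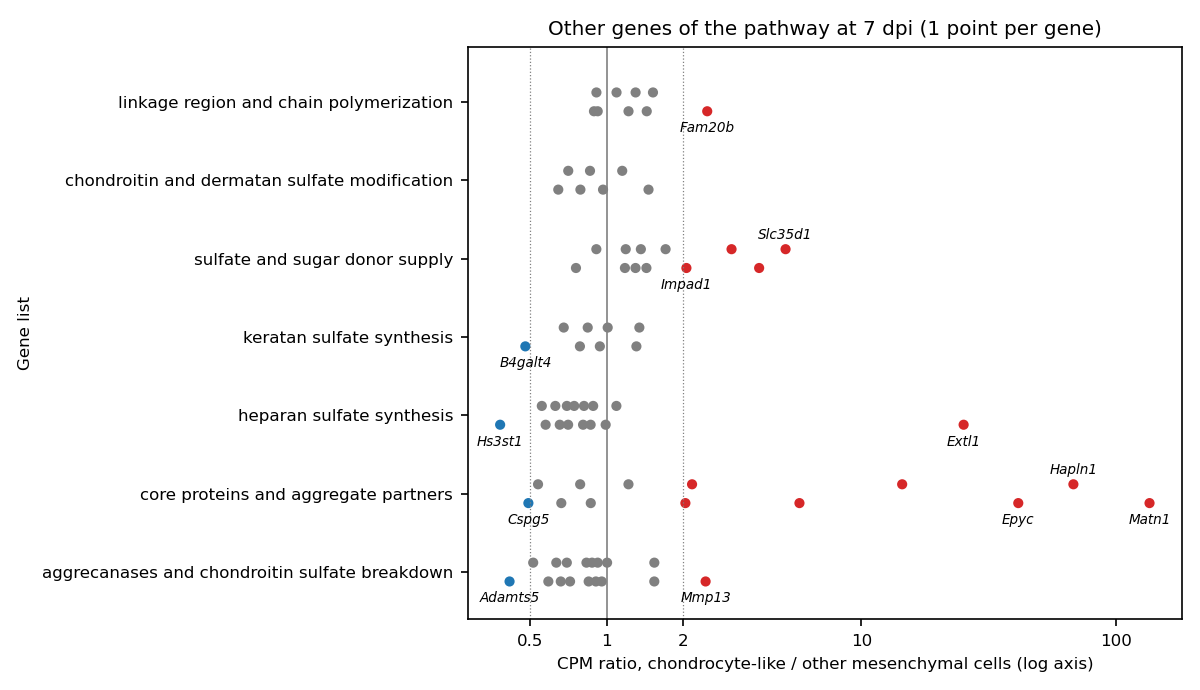
CPM ratio of chondrocyte-like over other mesenchymal cells at 7 dpi (logarithmic axis) for the 81 genes with at least 20 UMIs, by list; red points are at 2 or more, blue at 0.5 or less, grey between, and labels mark genes named in the text. *Matn1* (135), *Hapln1* (67.9) and *Epyc* (41.3) lie farthest to the right, and the chondroitin and dermatan sulfate modification list has no point past either dotted line.

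Over 39 units of 1 class in 1 library with at least 50 cells, the pattern of *Acan*, as log2(CPM + 10), was most like that of *Ibsp*, the bone sialoprotein gene (Pearson r = 0.974). Next came *Col9a2* (0.941), *Col2a1* (0.936), *Col9a1* (0.918) and *Tnn*, which encodes tenascin-W (0.902). Of these, *Col9a2*, *Col2a1* and *Col9a1* are markers of the cartilage gate. *Tnn* did not follow *Acan* within the 7 dpi lineage, with 257 CPM in chondrocyte-like and 298 CPM in other mesenchymal cells. The other members were less like *Acan*, from an r of -0.10 for *Chst3* and -0.00183 for *Ust* to 0.450 for *Papss2* and 0.465 for *Chpf*. The units share libraries and *Acan* is near 0 in most of them, so these values are descriptions.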

How the data were processed

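Tibial muscle cells were released with collagenase and captured on the 10x platform. The authors deposited, per library, raw UMI counts per gene and cell barcode, whole numbers with no normalization in the values. The submitters' processing notes and protocol name Cell Ranger 5.0.0 with the STAR aligner, the mm10 genome build and Seurat 3.1.1, and mention down-sampling of reads across samples, at a stage that is not stated. The 4 libraries held 12031, 11722, 15160 and 23752 barcodes (Uninjured, 1, 3 and 7 dpi) and 91146335 to 129007669 UMIs.

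Cells within 2 SD of the mean log10 UMIs and log10 genes of their library and with at most 10% mitochondrial UMIs were kept, and the top 7.5% by doublet score (Scrublet in scanpy 1.11.5, in place of the caller the study used) were removed. The files used here hold no cell type labels, so classes were rebuilt from 13 marker lists, and a difference from the study may come from that. UMIs were summed per class and library and divided by the summed total (CPM). Levels have exact Poisson intervals, shares of cells Clopper-Pearson intervals and ratios conditional binomial intervals (scipy 1.17.1), all at 95% and for counting error only. A count of 0 UMIs allows up to 3. Each group was 1 library, or cells of 1 library, so no test was made and no p-value computed. Classes under 50 cells were not used on their own, and 16 dendritic cells of 7 dpi entered the summed immune level of *Acan*. The split of B cells did not keep to this minimum. Its group with *Vpreb3* and no *Ighd* had 42 cells in Uninjured and 34 at 7 dpi. The members and all lists were chosen with earlier results of these data known. Beside the 10 members, the text names gate markers, up to 3 genes per list and direction past a ratio of 2 with at least 100 UMIs in the higher group, and the 5 genes most like *Acan* by Pearson correlation of log2(CPM + 10) among those with at least 500 UMIs. A gene of the lists that is counted and plotted is not reported here by name. The scripts were tested on simulated data. Of 32285 gene IDs, 32158 matched GENCODE M21.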

Additional observations from a re-analysis of the deposited data

How the results depend on the processing

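No paired analysis was possible because each group was a single library. Of 440 values of single members under alternative settings, 324 stayed within counting error, 110 moved beyond it and 6 changed sign. The settings differed in this. With thinning to 1000 UMIs per cell 23 stayed, 25 moved and 1 changed sign. With the mean share per cell in place of summed UMIs 29 stayed and 20 moved. With a cartilage gate that did not use *Col2a1* 6 stayed and 4 moved. With all deposited barcodes kept, the log2 ratio of *Acan* at 1 dpi against Uninjured was -0.22, 1 member in place of 2 was higher in that comparison, and 1 in place of 0 was higher in *Col10a1* positive cells. Thinned to 1000 UMIs per cell, *Chpf* in chondrocyte-like against other mesenchymal cells had a log2 ratio of 0.025, and *Acan* in the highest against the lowest *Col2a1* range had a ratio of 20.1 in place of 19.6. With the B cell level of each library subtracted, *Slc26a2* at 1 dpi against Uninjured was at -0.15 (log2), and members above their lineage level in B cells, such as *Chst3* and *Xylt1*, got no value, so members were not counted under it over time. With the NK and T cell level subtracted, an alternative chosen after seeing the data, *Chpf* was at -0.45 at 1 dpi and -0.20 at 3 dpi (log2 against Uninjured). *Chst3* was at -5.18 (log2) at 7 dpi against Uninjured, on too few UMIs to show a direction. Its 7 dpi lineage level was 0.544 CPM, and NK and T cells held 0.667% of its 150 UMIs in that library. Under the same subtraction 1 member was higher in *Col10a1* positive cells. At a ratio of 1.5 in place of 2, 15 pathway genes in place of 4 were lower and 18 in place of 14 higher in chondrocyte-like cells. The cause of these differences was not tested. Between chondrocyte-like and other mesenchymal cells, these subtractions also took *Slc26a2* to 2.96 and *Xylt1* to 3.11 (NK and T cells, from 2.14 and 2.27) and *Chsy1* to 1.59 (B cells, from 0.64), all log2. At 1 dpi NK and T cells had *Slc26a2* at 35.4 CPM, against 28.6 CPM in the lineage. Whether a subtracted level was free RNA or the immune cells' own transcripts was not tested, so these are not corrected ratios. The B cell subtraction left *Chst11* as it was because B cells of 7 dpi had 0 UMIs of it. NK and T cells held 1.03% of the *Chst11* UMIs of that library, so this does not extend to their subtraction. The count of members higher in chondrocyte-like cells was 5 under every alternative that gave one except thinning. There 6 passed a ratio of 2, with *Chst3* at a log2 ratio of 1.21. After thinning *Chst3* had fewer than the 20 UMIs that a call requires, so its value is not a call. A UMI of it was left in 0.239% of cells or less in every *Col2a1* range. No count of members higher in chondrocyte-like cells was made under the subtractions. Single libraries, pooled animals and marker gates set the limits, and members under 50 UMIs in a group (*Chst3*, and *Acan* before 3 dpi) have intervals too wide for a direction of less than about 2 times.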
